A study of Mus musculus with 12 samples.

Results

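The average effect of an IL-35 blocking antibody on RNA from sorted NK cells of mouse pancreatic tumours was described over 2 backgrounds, mice given cGAMP and mice not given it. All 12 libraries of the study entered, 6 with the antibody and 6 without. For each gene the antibody effect was the mean, on the log2 scale, of anti-IL-35 minus control IgG and of the combination minus cGAMP. Genes whose response was alike in both backgrounds were then set apart: 1984 of the 14182 genes tested.

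Mice were labelled wild type (WT) and bore pancreatic tumours, and every group was sorted on day 21 after tumour cell injection. The 4 groups had 3 libraries each. The IgG group received control IgG, and PBS took the place of cGAMP where none was given. The cGAMP group received 10 µg of cGAMP intravenously, 4 times at intervals of 3 days from day 8. The anti-IL-35 group received 200 µg of antibody intraperitoneally, 3 times at intervals of 3 days from day 8, and the combination group received both agents. Sex, age, the tumour cell line, the sorting gate and whether mice given cGAMP alone also had control IgG stayed unstated in these sources. Nothing in the labels ties each library to its own animal, so the spread behind the p-values is that of libraries and may be technical.

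IL-35 is an inhibitory cytokine of the IL-12 family, a pair of the subunits Ebi3 and Il12a, made chiefly by regulatory T and B cells. It signals through the receptor chains Il12rb2 and Il6st and through STAT proteins, while its subunits also form IL-27 (Ebi3) and IL-12 (Il12a). NK cells are innate lymphocytes that kill tumour cells with perforin and granzymes and are set by a balance of activating and inhibitory receptors. cGAMP is the cyclic dinucleotide that binds STING, which drives type I interferon and NF-kappaB responses.

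Libraries held 12811353 to 22217766 counts, and levels below are CPM after TMM scaling, that is, counts relative to the scaled library total. The 10 NK markers checked were present in all groups, with summed means of 6314 CPM in IgG, 6955 in cGAMP, 6486 in anti-IL-35 and 5964 in the combination. Transcripts of other cells were also present. Summed over 22 neutrophil markers, libraries held 5630 to 5851 CPM in IgG, 12889 to 13049 in cGAMP, 23722 to 24952 in anti-IL-35 and 21864 to 21930 in the combination. The ranges for 22 B cell markers were 16390 to 16768, 17220 to 17777, 7669 to 7758 and 17640 to 17926 CPM, in the same order of groups. Fewer cells of a type and less RNA per cell cannot be told apart in such bulk samples.

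The antibody changed 3949 genes on average at an adjusted p under 0.05 (27.8% of genes tested), 2371 higher (16.7%) and 1578 lower (11.1%) (edgeR quasi-likelihood test, Benjamini-Hochberg adjusted). Changes of at least 2-fold were 335 higher (2.36%) and 91 lower (0.642%). Each background alone gave 3542 calls (25.0%) without cGAMP and 2102 (14.8%) with it, and the difference between them, the interaction, was called for 1475 genes (10.4%). The share of higher calls, 60.0%, depended on the scaling of libraries. It was 85.0% when 9 NK transcripts set the scale and 32.6% with library totals alone, as the median effect of all genes moved from -0.03 to 0.07 and to -0.11 on the log2 scale.

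A gene was called alike when both effects had the sign of a called average, the interaction was not called, and the 95% interval of that difference lay within 1.5-fold either way. The 1984 alike genes (14.0%) were 1155 higher (8.14%) and 829 lower (5.85%). The split was 2080 and 105 when NK transcripts set the scale, and 778 and 1972 with library totals alone. A further 869 genes (6.13%), termed unequal, had estimates of the same sign whose difference was called, 212 (1.49%) had estimates of opposite sign, and 884 (6.23%) were too imprecise to place. The unplaced genes had low levels, with a median of 8.17 CPM among those higher and 8.79 among those lower, against 91.3 and 57.9 for the alike genes. The interval of the difference reached -0.57 for Cebpb, just inside the limit, and -0.64 for Oas2, just outside it.

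Alike responses were small. The median average effect was 0.23 for the alike higher genes, with 0.28 without cGAMP and 0.20 with it, and -0.22 for the alike lower genes, with -0.23 and -0.22. Of the alike genes, 652 were called in each background alone (4.60% of genes tested) and 359 in neither (2.53%). All 6 antibody libraries lay above all 6 others for 1225 genes tested (8.64%), 499 of them alike higher (3.52%), and below them for 366 (2.58%), 240 of them alike lower (1.69%). Among unequal higher genes the effect was larger without cGAMP in 689 of 707, at a median of 0.84 without it and 0.38 with it. Over all genes the effects without and with cGAMP, which share no library, had a Pearson correlation of 0.226 and a Spearman correlation of 0.365, given as a description across genes, which are not independent.

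**Figure D1:**
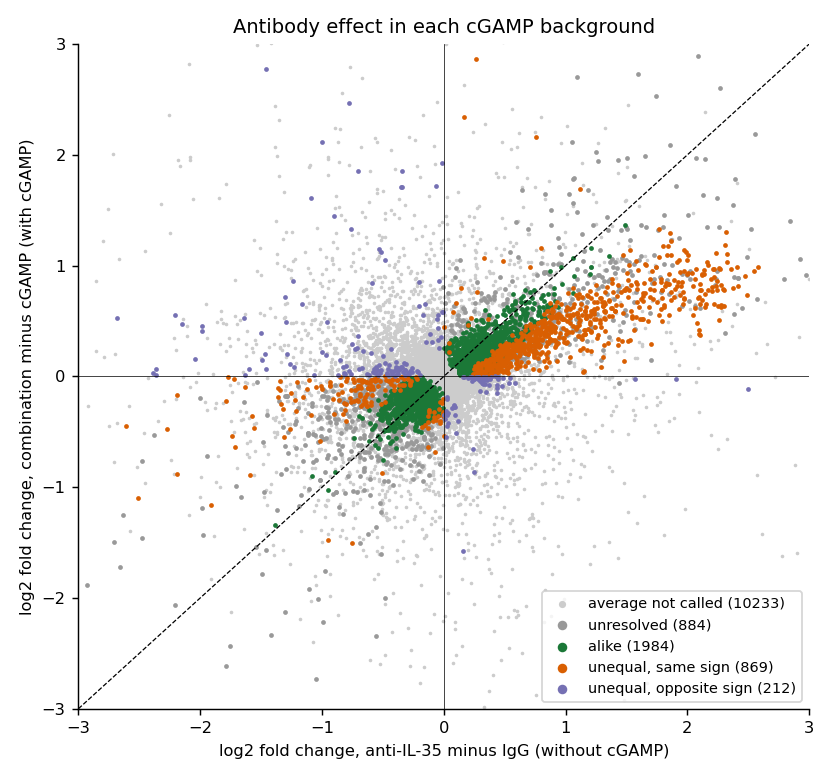
Antibody effect of each gene tested without cGAMP (x axis) and with cGAMP (y axis), as log2 fold change, coloured by class, with a dashed line of equality; 95 genes lie beyond the axes. The 1984 alike genes lie near the line by their definition, and most unequal higher genes lie below it.

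Among alike higher genes of at least 5 CPM, those with the largest change and no overlap of libraries were Rab44, Cebpb, Epha1, Csrnp1, Tbc1d2, Dgat1, Ptafr, Oasl1, Palm and Rsad2. Rab44, a large Rab GTPase known from mast cells and other bone marrow cells (chr17:29114128-29148980, GRCm38.p6), had 22.1, 18 and 20.01 CPM in IgG and 23.02, 21.5 and 22.1 in cGAMP, against 52.9, 51.7 and 63.4 in anti-IL-35 and 61.5, 57.3 and 53.2 in the combination. The 6 antibody libraries were all more than double the others. Its effect was 1.48 ± 0.10 (log2, standard error) without cGAMP and 1.37 ± 0.10 with it, an average of 1.43 ± 0.07 (adjusted p = 9.19e-22), and the difference of -0.11 had an interval of -0.41 to 0.18.

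Cebpb, a leucine zipper transcription factor of myeloid and inflammatory gene expression, measured 262, 282 and 256 CPM in IgG and 362, 339 and 274 in cGAMP. It measured 628, 700 and 716 CPM in anti-IL-35 and 711, 716 and 640 in the combination. The antibody libraries lay in a single narrow range whichever background they came from, and the average effect was 1.22 ± 0.07 (adjusted p = 8.2e-08).

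Ptafr, the receptor for platelet-activating factor, read 36.1 to 40.6 CPM in IgG, 41.1 to 44.7 in cGAMP, 75.0 to 91.6 in anti-IL-35 and 70.4 to 91.1 in the combination. Dgat1, which makes triglyceride, read 35.7 to 43.4, 43.9 to 56.6, 81.0 to 96.8 and 91.6 to 93.4 CPM. Both were higher in every antibody library, by 0.99 ± 0.06 and 1.06 ± 0.06 on average. Palm, a membrane-attached paralemmin, and Tbc1d2, a Rab GTPase-activating protein, rose by 0.91 ± 0.06 and 1.06 ± 0.13. Csrnp1, an axin-induced nuclear protein, rose by 1.10 ± 0.05, and Epha1, an ephrin receptor kinase, by 1.18 ± 0.12 (adjusted p = 3.35e-23 and 2.35e-11).

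These genes moved in the same direction as the neutrophil markers, all 22 of which were higher in each background, against 7.78% of all genes. The antibody effect on the markers was unequal for 22 of 22, against 6.13% of all genes, with a median of 2.10 without cGAMP and 0.77 with it. Their summed mean was also higher in cGAMP than in IgG, at 12959 and 5715 CPM. S100a9, a subunit of the neutrophil alarmin calprotectin, was 1268, 1222 and 1231 CPM in IgG, 2893, 2829 and 2882 in cGAMP, 5598, 5869 and 5293 in anti-IL-35 and 4857, 4982 and 4933 in the combination. Its difference between backgrounds was -1.39 (interval -1.48 to -1.30, adjusted p = 1.21e-28). The part of neutrophil RNA in the alike higher genes was not tested.

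Among alike lower genes the same rule named Igf1, Sash1, Kcnj10, Ccr3, Dnajc27, Ikzf2, Lag3, Itga9, Lpl and Col14a1, with average effects from -0.63 to -0.52. Igf1, a growth factor known in tumours and tissue from macrophages and stromal cells, was 38.2, 41.5 and 40.5 CPM in IgG and 45.4, 52.9 and 47.1 in cGAMP. It was 29.1, 32.0 and 24.0 CPM in anti-IL-35 and 30.0, 28.9 and 27.1 in the combination. Every antibody library was below every other library, at an average effect of -0.63 ± 0.07 (adjusted p = 9.29e-10). Kcnj10, a potassium channel, was 66.0 to 70.2 CPM in IgG, 81.2 to 98.7 in cGAMP, 45.5 to 48.4 in anti-IL-35 and 55.3 to 59.3 in the combination, an average of -0.59 ± 0.06. The integrin chain Itga9, the lipoprotein lipase Lpl and the collagen Col14a1, which belong to adhesion, lipid uptake and matrix, averaged -0.53, -0.52 and -0.52. Itga9 was -0.70 without cGAMP and -0.36 with it, Lpl -0.67 and -0.37, and Col14a1 -0.44 and -0.60. The difference intervals of Itga9 and Lpl, 0.10 to 0.58 and 0.02 to 0.57, lay just inside the limit of likeness. Neither interaction was called (adjusted p = 0.0649 and 0.197).

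Lag3, an inhibitory receptor of activated T and NK cells, read 37.1, 34.3 and 36.8 CPM in IgG and 38.2, 33.9 and 36.0 in cGAMP, against 23.5, 25.0 and 23.5 in anti-IL-35 and 25.9, 26.7 and 25.1 in the combination. The libraries of IgG and cGAMP overlapped each other and stood clear of all 6 antibody libraries. The effect was -0.59 ± 0.10 without cGAMP and -0.48 ± 0.10 with it (average -0.53 ± 0.07, adjusted p = 5.47e-08). Ikzf2, the transcription factor Helios of regulatory T cells and some NK cells, was 24.4 to 30.0 CPM in the 6 libraries without antibody and 17.1 to 22.2 in the 6 with it (-0.54 ± 0.09, adjusted p = 1.92e-06). Tigit, a further inhibitory receptor, was 23.6 to 29.2 CPM without antibody and 16.9 to 23.5 with it, the 2 ranges separated by less than the spread within either. Its average effect was -0.34 ± 0.09 (adjusted p = 0.00185).

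T cell markers also fell with the antibody. Of 19 tested, 13 were lower and 0 higher against 11.1% and 16.7% of all genes. Of the 13, 10 were alike, where 5.85% of all genes were alike lower. The list median was -0.41 against -0.03 for all genes. The constant segment Trbc2 of the T cell receptor was 146, 146 and 154 CPM in IgG, 146, 146 and 140 in cGAMP, 107, 116 and 114 in anti-IL-35 and 110, 118 and 110 in the combination. The average effect was -0.38 ± 0.04 (adjusted p = 6.68e-11), while Cd3d, a chain of the T cell receptor complex, fell by 0.41 and Icos, a T cell costimulator, by 0.45. Summed over the list, libraries held 754 to 770 CPM in IgG, 720 to 727 in cGAMP, 560 to 581 in anti-IL-35 and 575 to 606 in the combination. The part of T cell RNA in the falls of Lag3, Ikzf2 and Tigit was not tested.

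**Figure D2:**
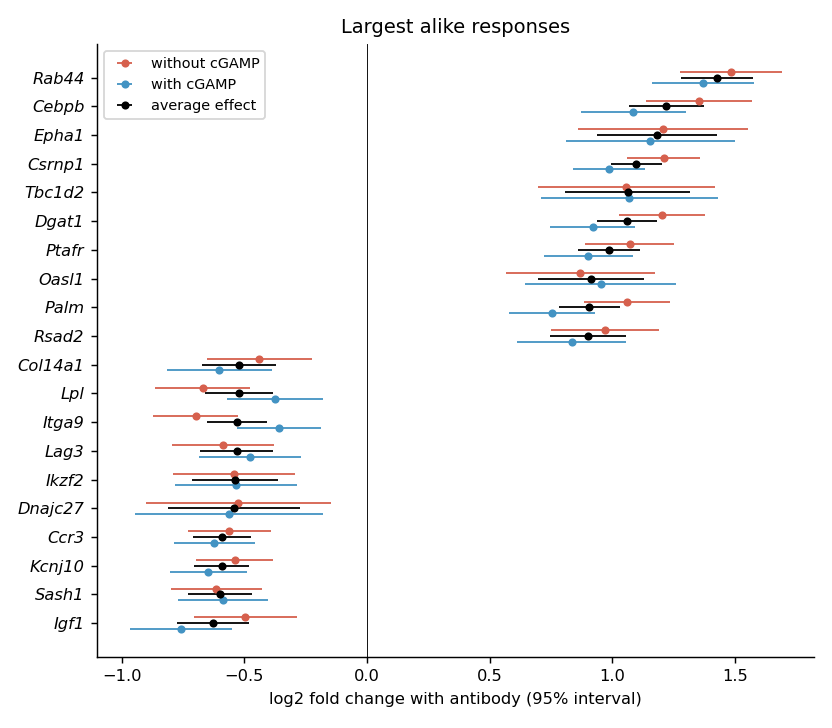
Antibody effect (log2 fold change, x axis) of the 10 alike higher and 10 alike lower genes with the largest change among those of at least 5 CPM whose libraries did not overlap, as points with 95% intervals, without cGAMP (red), with cGAMP (blue) and on average (black). Average effects run from Rab44 at 1.43 to Igf1 at -0.63. The intervals of both backgrounds overlap for each gene, which follows largely from picking alike genes.

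**Figure D3:**
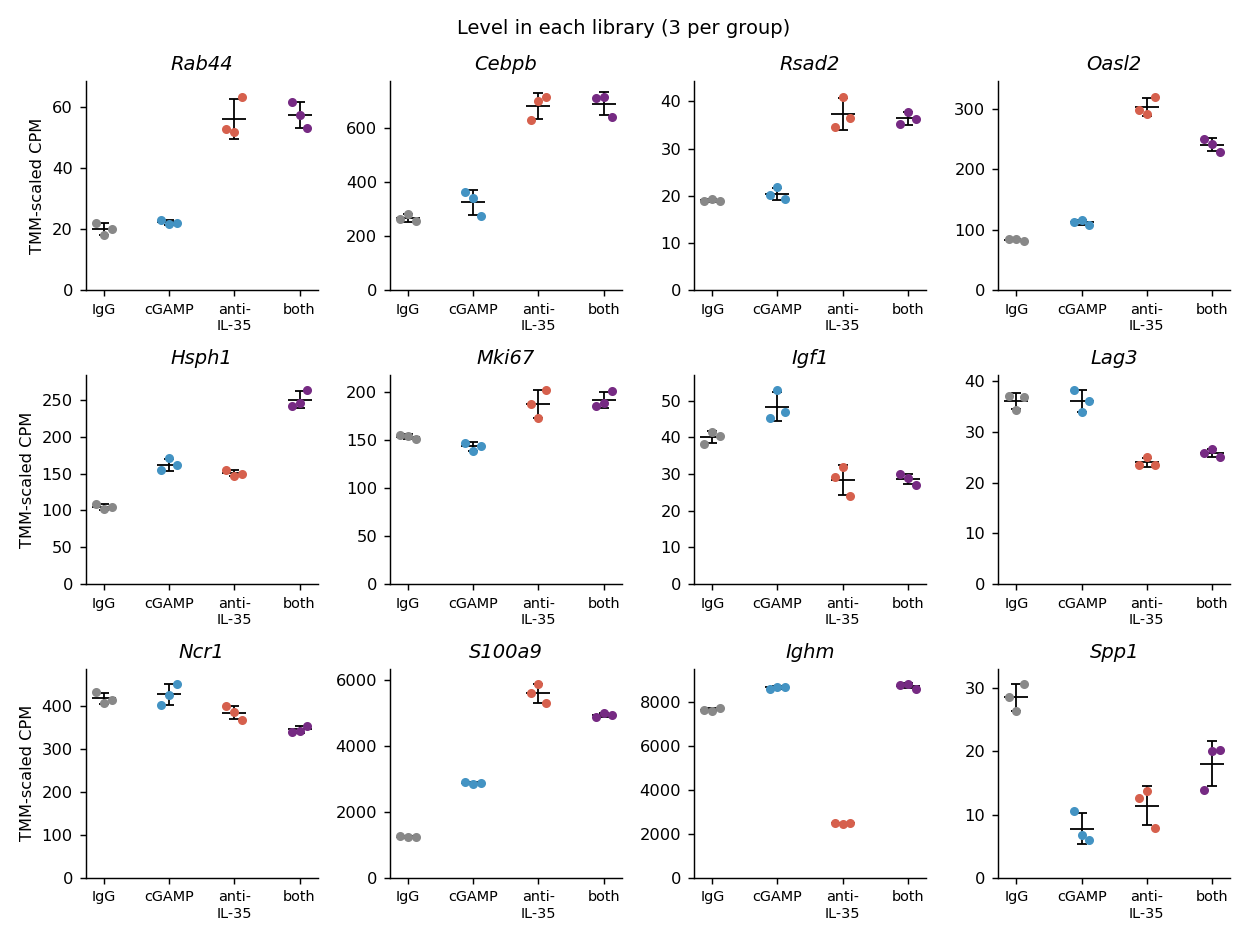
Level of 12 genes in each library (TMM-scaled CPM, y axis) by group, with the mean and SD of 3 libraries as bars. Rab44, Cebpb, Rsad2, Igf1 and Lag3 show one step with the antibody in both backgrounds, while S100a9, Ighm and Spp1 do not.

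Type I interferon-stimulated genes rose more often than they fell on average. Of 41 tested, 19 were higher and 3 lower against 16.7% and 11.1% of all genes. Alike were 10 (9 higher), against 14.0% of all genes. Without cGAMP 15 were higher and 7 lower, against 15.7% and 9.32% of all genes. With it 18 were higher and 1 lower, against 9.99% and 4.83%. The average counts were 26 and 1 when NK transcripts set the scale and 16 and 6 with library totals alone. The 2'-5' oligoadenylate synthetase family and Rsad2 (viperin), which restrict viral replication, had the largest changes. The list median was 0.12, and 19 members were not called.

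Rsad2 (chr12:26442743-26456452) was 18.8, 19.4 and 19.0 CPM in IgG and 20.2, 21.8 and 19.3 in cGAMP, and 34.5, 41.0 and 36.6 in anti-IL-35 and 35.2, 37.8 and 36.2 in the combination. The 6 libraries without antibody lay within 18.8 to 21.8 CPM, with IgG and cGAMP overlapping each other. Its antibody effect was 0.97 ± 0.11 without cGAMP and 0.83 ± 0.11 with it (average 0.90 ± 0.08, adjusted p = 8.81e-14). Oasl1, an oligoadenylate synthetase-like protein that limits Irf7 translation in mice, was 10.7 to 15.3 CPM without antibody and 18.9 to 27.8 with it (0.91 ± 0.11, adjusted p = 1.19e-09).

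Oasl2 and Oas3 rose in both backgrounds but unequally. Oasl2 was 83.8, 84.8 and 81.7 CPM in IgG, 113, 116 and 108 in cGAMP, 298, 291 and 320 in anti-IL-35 and 250, 242 and 229 in the combination. The effect of 1.86 ± 0.05 without cGAMP exceeded the 1.10 ± 0.05 with it, a difference of -0.76 (adjusted p = 4.32e-11). Oas3 rose by 1.25 ± 0.06 and 0.82 ± 0.06, a difference of -0.42 (adjusted p = 0.000535).

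Among interferon regulators and effectors, Irf7, the master factor of type I interferon, rose by 0.33 ± 0.05 on average (adjusted p = 3.28e-06), Rtp4 by 0.65 ± 0.07 and the membrane protein Ifitm3 by 0.53 ± 0.04, all 3 alike. Isg15, a ubiquitin-like modifier, was 17.3, 15.8 and 14.7 CPM in IgG, 15.3, 14.3 and 12.2 in cGAMP, 19.2, 19.7 and 20.7 in anti-IL-35 and 19.2 to 21.3 in the combination. The average effect was 0.43 ± 0.10 (adjusted p = 0.000438), though the effect without cGAMP alone was not called (0.32 ± 0.14, adjusted p = 0.0805). Of 14 genes of the STING pathway itself, 1 was higher and 1 lower, against 16.7% and 11.1% of all genes. The counts were 5 and 0 when NK transcripts set the scale and 1 and 4 with library totals alone.

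The 150 bases before the transcription start of 3 of these genes are shown, from the RefSeq promoter table of GRCm38.p6 and read 5′ to 3′ along the gene, since they carry the letters of the interferon-stimulated response element. Capitals mark GAAANNGAAA on either strand. The genes were chosen after their values were seen.
Rsad2: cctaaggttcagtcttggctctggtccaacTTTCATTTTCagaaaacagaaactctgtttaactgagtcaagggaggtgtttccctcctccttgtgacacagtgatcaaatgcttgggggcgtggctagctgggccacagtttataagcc
Oas3: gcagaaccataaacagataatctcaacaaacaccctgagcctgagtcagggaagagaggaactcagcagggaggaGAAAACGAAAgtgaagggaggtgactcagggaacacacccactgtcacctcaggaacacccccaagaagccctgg
Isg15: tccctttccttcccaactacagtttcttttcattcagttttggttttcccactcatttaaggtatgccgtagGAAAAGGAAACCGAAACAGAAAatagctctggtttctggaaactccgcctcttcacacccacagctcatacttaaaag
The windows are chr12:26456453-26456602, chr5:120777660-120777809 and chr4:156200819-156200968, all on the minus strand. The match begins 120 bases before the start in Rsad2 and 75 before it in Oas3, and 3 overlapping matches begin 78, 72 and 66 before it in Isg15. The windows of Oasl1 and Oasl2 held no such match, and Oas2 had no entry. Both windows ran into the annotated gene: chr5:114923090-114923239 for Oasl1, which starts at 114923143, and chr5:114896784-114896933 for Oasl2, which starts at 114896926. They therefore did not cover the 150 bases upstream of the annotated start. In windows of 250 bases before to 50 after the start, 3.49% of all promoters and 3.22% of those of genes tested held the letters. The shares were 3.72% for alike higher genes and 5.21% for alike lower genes.

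Heat-shock genes, chaperones that refold proteins, mostly moved by like amounts in both backgrounds. Of 16 tested, 12 were higher and 1 lower, against 16.7% and 11.1% of all genes. Of the 12, 11 were alike, where 8.14% of all genes were alike higher, and 2 of the 16 had estimates of opposite sign. The median was 0.23 without cGAMP and 0.26 with it. All 6 antibody libraries lay above the others for 1 member, against 8.64% of all genes. With library totals alone 8 were higher and 2 lower. Hsph1, a co-chaperone of Hsp70, was 108, 101 and 104 CPM in IgG, 154, 171 and 161 in cGAMP, 155, 147 and 149 in anti-IL-35 and 242, 246 and 263 in the combination. Each agent alone gave a similar level and the combination a higher one, so the antibody step was 0.52 ± 0.05 without cGAMP and 0.63 ± 0.05 with it (difference interval -0.05 to 0.26). Dnaja1, a J-domain co-chaperone, rose by 0.37 ± 0.04 and Hsp90aa1 by 0.32 ± 0.04 on average. Hspa1a and Hspa1b, the inducible Hsp70 genes, rose by 0.26 and 0.35 and are near-identical copies whose counts may be split between them.

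Genes of glycolysis were mostly higher with the antibody. Of 22 tested, 16 were higher and 1 lower, against 16.7% and 11.1% of all genes. All 6 antibody libraries lay above the other 6 for 15 of the 22, against 8.64% of all genes. Slc16a3, the lactate exporter, was 72.5, 75.2 and 76.0 CPM in IgG, 120, 127 and 117 in cGAMP, 240, 258 and 279 in anti-IL-35 and 280, 265 and 279 in the combination. The antibody groups reached one level from different starting points, so its effect was unequal (1.80 ± 0.06 and 1.18 ± 0.06, difference -0.62, adjusted p = 3.22e-08). The neutrophil markers rose in the same groups, with summed means of 5715 CPM in IgG, 12959 in cGAMP, 24152 in anti-IL-35 and 21906 in the combination, and their part in the glycolysis genes was not tested. Slc2a1, a glucose transporter, was alike with an average of 0.67 ± 0.05, and Pdk1, a kinase that restrains pyruvate oxidation, fell by 0.37. Of 23 genes of oxidative phosphorylation, 1 was higher and 2 lower, against 16.7% and 11.1% of all genes, but 4 and 0 when NK transcripts set the scale and 0 and 16 with library totals alone.

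Of 31 cell cycle genes, 7 were higher and 1 lower, against background shares of 16.7% and 11.1%. The counts rested on the scaling, at 18 and 0 when NK transcripts set the scale and 3 and 3 with library totals alone. Mki67, the proliferation marker, was 155, 154 and 150 CPM in IgG, 147, 139 and 143 in cGAMP, 187, 172 and 201 in anti-IL-35 and 186, 188 and 201 in the combination. Antibody libraries were all higher, by 0.36 ± 0.04 (adjusted p = 1.72e-10), alike in both backgrounds. Top2a, a DNA topoisomerase of dividing cells, rose by 0.18 ± 0.04 (adjusted p = 0.000495), a call that ended when library totals alone set the scale (adjusted p = 0.0749).

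Activating receptors of NK cells were more often lower than higher. Of 27 receptors and adaptors tested, 15 were lower and 7 higher, against 11.1% and 16.7% of all genes. Of the 15, 8 were alike, where 5.85% of all genes were alike lower. The count rested on the scaling: 4 were lower and 7 higher when NK transcripts, some of them in the list, set the scale, and 19 and 6 with library totals. The list median was -0.13, with 0.03 without cGAMP and -0.27 with it. Several killer-cell lectin-like genes are close copies whose counts may be split between them.

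Ncr1, the activating receptor NKp46, was 433, 408 and 415 CPM in IgG, 404, 428 and 452 in cGAMP, 400, 386 and 369 in anti-IL-35 and 341, 343 and 355 in the combination. All antibody libraries were below the others, although the gap to the nearest was small. Its average effect was -0.21 ± 0.03 (adjusted p = 3.35e-07), from -0.12 ± 0.04 without cGAMP and -0.31 ± 0.05 with it, and the interaction lay at the threshold (adjusted p = 0.0497). Klrk1, the receptor NKG2D, fell with cGAMP present (-0.35 ± 0.05, adjusted p = 5.1e-08) and was 0.03 ± 0.05 without it (adjusted p = 0.724), a difference that was itself called (-0.38, adjusted p = 2.08e-05). Its average call ended under NK transcript scaling (adjusted p = 0.209).

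Among the 7 members that rose were Fcgr3, a receptor for IgG (0.72 ± 0.04 on average), the kinase Syk (0.43 ± 0.03) and the signalling adaptors Tyrobp (0.29 ± 0.03) and Fcer1g (0.24 ± 0.03). These 4 are expressed in NK cells and also in myeloid cells. Syk was alike, at 558 to 584 CPM in IgG, 616 to 633 in cGAMP, 759 to 854 in anti-IL-35 and 785 to 823 in the combination. Cd160, a receptor of NK and T cells, fell by 0.34 ± 0.06 on average, also alike. Inhibitory receptors and checkpoints showed 12 lower and 3 higher of 24, against 11.1% and 16.7% of all genes. Alike were 4, against 14.0% of all genes, namely Lag3, Tigit, Cd96 and Klrd1. The Cd96 call ended under NK transcript scaling (adjusted p = 0.0529). Pdcd1 (PD-1) fell by 0.61 ± 0.19 (adjusted p = 0.0141), a call lost without IgG replicate 1 (adjusted p = 0.0714) or combination replicate 2 (0.0501).

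Transcripts of the killing machinery moved in both directions. Of 17 cytotoxic granule genes tested, 4 were higher and 5 lower, against 16.7% and 11.1% of all genes. The counts rested on the scaling, at 7 and 1 when NK transcripts set the scale and 4 and 10 with library totals alone. Serglycin (Srgn), the granule proteoglycan, rose by 0.63 ± 0.03 on average, and Rab27a, which docks granules, by 0.49 ± 0.04, both unequally. Stx11, a syntaxin of granule fusion, was 63.1 to 67.0 CPM in IgG, 71.5 to 85.4 in cGAMP, 98.9 to 106 in anti-IL-35 and 102 to 113 in the combination, and was alike at 0.55 ± 0.05 (adjusted p = 2.7e-13). Ctsc, the protease that activates granzymes, averaged -0.23 ± 0.03, from -0.42 ± 0.04 without cGAMP and -0.03 ± 0.04 with it. The effect with cGAMP was not called (adjusted p = 0.74) and the difference was (0.39, adjusted p = 5.27e-06). Prf1 (perforin) was 637 to 641 CPM in IgG, 718 to 747 in cGAMP, 660 to 717 in anti-IL-35 and 663 to 692 in the combination. The average effect of 0.01 ± 0.03 was not called (adjusted p = 0.821), with 0.13 ± 0.04 without cGAMP and -0.11 ± 0.04 with it, a difference that was called (-0.23, adjusted p = 0.00226). Gzmb (granzyme B) had an average effect of 0.00 ± 0.03 (adjusted p = 0.942) and Ifng, the main NK cytokine, of -0.18 ± 0.09 (adjusted p = 0.122). Prf1 and Gzmb were called higher when NK transcripts set the scale (adjusted p = 0.00604 and 0.0271) and lower with library totals alone, as was Ifng (0.0265, 0.0381 and 0.0131).

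Among 17 effector cytokines, chemokines and death ligands, 5 were lower and 2 higher, against 11.1% and 16.7% of all genes. The counts were 10 and 1 with library totals alone and 4 and 2 when NK transcripts set the scale. Tnfsf10 (TRAIL), a death ligand, was 29.4 to 32.3 CPM in IgG, 31.9 to 34.2 in cGAMP, 19.3 to 23.1 in anti-IL-35 and 24.8 to 26.1 in the combination, so that the antibody and other libraries did not overlap. Its effect was alike, at -0.44 ± 0.08 on average (adjusted p = 9.88e-06). Ccl4, a chemokine that draws immune cells, fell by 0.42 ± 0.07 on average, also alike (adjusted p = 6.66e-06), with 1 antibody library inside the range of the others. Eomes, a transcription factor of NK maturity, had an average of -0.05 ± 0.04 (adjusted p = 0.318), the mean of 0.20 ± 0.05 and -0.30 ± 0.05, which differed (adjusted p = 5.29e-07).

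The genes of IL-35 itself were not alike. Ebi3 was 10.8, 7.5 and 9.89 CPM in IgG, 13.3, 16.4 and 19.6 in cGAMP, 19.7, 20.8 and 24.4 in anti-IL-35 and 19.6, 21.2 and 17.5 in the combination. It rose by 1.21 ± 0.16 without cGAMP and was 0.23 ± 0.15 with it (adjusted p = 1.59e-08 and 0.368), a difference of -0.97 (adjusted p = 0.00115). Il12a, at 0.318 to 2.74 CPM, was near the detection limit and its average effect was not called (-0.82 ± 0.39, adjusted p = 0.116). An antibody against a protein need not change the RNA of its target, so these values do not check the treatment labels.

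The receptor chain Il6st fell by 0.19 ± 0.06 on average (adjusted p = 0.00996), a call that ended under NK transcript scaling (adjusted p = 0.287), and Il12rb2 had an average effect of 0.03 ± 0.05 (adjusted p = 0.653). Stat3, the signal transducer of several cytokines of the family, was 306, 316 and 319 CPM in IgG, 379, 342 and 359 in cGAMP, 411, 433 and 448 in anti-IL-35 and 442, 429 and 435 in the combination. It was alike at 0.37 ± 0.03 (adjusted p = 9.32e-14), with all antibody libraries above the others. Socs3, the feedback inhibitor that Stat3 induces, rose in both backgrounds, by 1.71 ± 0.05 and 0.95 ± 0.05, and unequally (difference -0.76, adjusted p = 2.31e-11). Stat4, a transducer of IL-12 signals, was -0.09 ± 0.04 on average (adjusted p = 0.0463), a call that ended under NK transcript scaling (0.931). Its estimates were of opposite sign in the 2 backgrounds, a difference of -0.35 that was called. Stat4 was 176 to 182 CPM in IgG and 183 to 193 in anti-IL-35, but 203 to 216 in cGAMP and 164 to 178 in the combination. The Stat4 call was also lost without IgG replicate 1, 2 or 3, anti-IL-35 replicate 2, cGAMP replicate 3 or combination replicate 1 or 2 (adjusted p = 0.0529 to 0.147). Of the 19 STAT and SOCS genes, 8 were higher and 3 lower, against 16.7% and 11.1% of all genes. Alike were 7, against 14.0% of all genes. The counts higher and lower were 10 and 0 when NK transcripts set the scale and 6 and 6 with library totals alone.

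**Figure D4:**
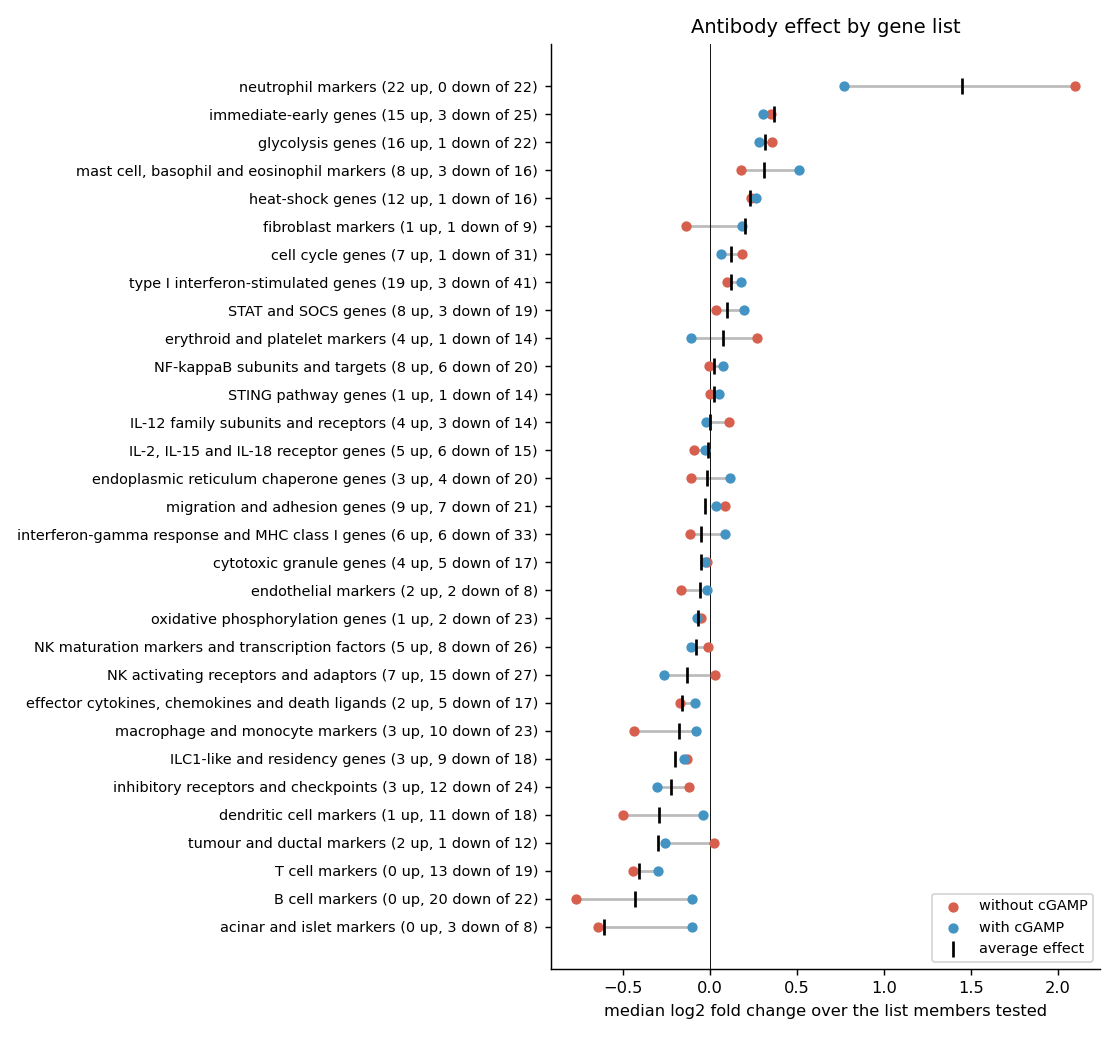
Median antibody effect (log2 fold change, x axis) over the tested members of each of 31 gene lists, without cGAMP (red), with cGAMP (blue) and on average (black bar), with counts of members called higher (up) and lower (down). Heat-shock genes have both points close together at 0.23 and 0.26, while neutrophil markers lie at 2.10 and 0.77.

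Mast cell, basophil and eosinophil markers had a larger median effect with cGAMP than without it, though not in every member. Of 16 tested, 8 were higher and 3 lower, against 16.7% and 11.1% of all genes. The median was 0.18 without cGAMP and 0.51 with it, and 6 members were too imprecise to place. Prss34, a mouse basophil protease, was 28.0, 29.3 and 30.8 CPM in IgG, 26.9, 27.4 and 20.4 in cGAMP, 68.6, 63.0 and 60.2 in anti-IL-35 and 76.5, 86.5 and 76.6 in the combination. The effect was 1.12 ± 0.10 without cGAMP and 1.69 ± 0.10 with it, a difference of 0.57 (adjusted p = 0.00249). Ccr3, an eosinophil and basophil chemokine receptor, fell and was alike at -0.59 ± 0.06. Siglecf, the other of the 2 unequal members, rose more without cGAMP. It was 8.57 to 10.2 CPM in IgG, 10.0 to 11.7 in cGAMP, 31.9 to 35.1 in anti-IL-35 and 22.3 to 26.6 in the combination. Summed over the list, libraries held 376 to 402 CPM in IgG, 430 to 442 in cGAMP, 439 to 457 in anti-IL-35 and 500 to 513 in the combination.

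Unequal higher genes were led by Prok2, Hdc, Lipg, Cxcr1 and Dhrs9. Hdc, which makes histamine, was 72.5 to 79.1 CPM in IgG, 159 to 165 in cGAMP, 378 to 387 in anti-IL-35 and 389 to 411 in the combination, the antibody groups again reaching a near-common level. Prok2, a chemokine-like peptide of neutrophils, was 1.18 to 2.34, 2.20 to 4.33, 12 to 17.1 and 5.29 to 7.08 CPM. It rose by 3.14 ± 0.27 without cGAMP and by 1.00 ± 0.26 with it. Unequal lower genes were led by Muc5ac, Mrgpre, Iglc2, Fcrl5 and Iglc3, of which Iglc2 and Iglc3 are near-identical light chain segments and Fcrl5 is an Fc receptor-like protein of B cells.

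B cell markers were lower on average for 20 of 22 and higher for 0, against 11.1% and 16.7% of all genes, yet none was alike. Without cGAMP 20 were lower and 1 higher, against 9.32% and 15.7% of all genes. With it 5 were lower and 2 higher, against 4.83% and 9.99%. Ighm, the heavy chain of IgM, was 7670, 7611 and 7739 CPM in IgG and 2478, 2447 and 2514 in anti-IL-35, but 8623, 8707 and 8715 in cGAMP and 8806, 8834 and 8619 in the combination. The anti-IL-35 libraries alone were low, so the average of -0.81 ± 0.02 described neither background (-1.63 ± 0.03 and 0.01 ± 0.03). Of 206 immunoglobulin V, D and J segments tested, 138 were called on average (67%, against 27.8% of all genes). Of the 206, 46 were higher and 92 lower, against 16.7% and 11.1% of all genes. The interaction was called for 133 of the 206, against 10.4% of all genes. Alike were 13 (6.31%, against 14.0% of all genes).

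Some effects cancelled in the average. Called changes ran in opposite directions for 106 genes, of which 20 (0.141%) were higher without cGAMP and lower with it and 86 (0.606%) the reverse. The number was 39 without immunoglobulin and other-cell genes and 414 when NK transcripts set the scale. Spp1 (osteopontin), a secreted matrix protein of macrophages, was 28.6, 26.4 and 30.6 CPM in IgG, 10.6, 6.70 and 5.96 in cGAMP, 12.7, 13.7 and 7.89 in anti-IL-35 and 13.9, 20.01 and 20.1 in the combination. The IgG libraries were the highest, while those of the other groups partly overlapped, and its effects of -1.32 ± 0.18 and 1.24 ± 0.19 left an average of -0.04 ± 0.13 (adjusted p = 0.864).

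Arg1, the arginase of alternatively activated macrophages, was at 55.9 to 58.5 CPM in IgG, 13.5 to 17.5 in cGAMP, 18.6 to 19.9 in anti-IL-35 and 31.0 to 40.1 in the combination. Its effects were -1.56 ± 0.11 and 1.23 ± 0.12. Cxcl10, an interferon-induced chemokine, Mmp19, a metalloproteinase, and Vcan, the proteoglycan versican of monocytes, had effects of -0.92 and 1.07, of -0.91 and 1.21, and of -0.86 and 0.97. In the other direction were Ighe, the heavy chain of IgE, Alox15, a lipoxygenase of eosinophils and macrophages, the cadherin Cdh22, the zinc finger protein Zbtb2 and the immediate-early factor Egr1 (0.24 ± 0.08 and -0.26 ± 0.08). Macrophage and monocyte markers, 23 in all and summing to 6782 to 6905 CPM in IgG and cGAMP, summed to 6807 to 6836 in anti-IL-35 and 7793 to 7900 in the combination. That sum is weighted by Lyz2 (lysozyme), which alone held 2506 to 2549 CPM in IgG and 3248 to 3262 in anti-IL-35. By gene, 16 of the 23 markers were lower and 3 higher without cGAMP, against 9.32% and 15.7% of all genes, at a median of -0.44. With it 5 markers were lower and 5 higher, against 4.83% and 9.99% of all genes, at a median of -0.08. Their part in these opposite effects was not tested.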

How the data were processed

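Libraries of total RNA, prepared with the NEBNext Ultra kit per the labels, were deposited by the authors as 1 table of raw counts per gene. Per the submitters' processing notes the tools were STAR 2.7.7a, SAMtools 1.15 and featureCounts on mm10; no source used here gives the annotation, strand setting or handling of multi-mapped reads, so overlapping and antisense genes cannot be told apart. All 27179 IDs were read, of which 1049 without a symbol held 0.251% of counts, and 25275 matched RefSeq GRCm38.p6.

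In R 4.3.3, edgeR 4.0.16 fitted 14182 genes passing filterByExpr (minimum count 10) with TMM scaling and a robust quasi-likelihood fit of 4 group means over 12 libraries (8 residual degrees of freedom). The contrasts were the average effect, each background's effect and the interaction, adjusted by Benjamini-Hochberg over all genes and called under 0.05. Intervals came from the standard error, per gene and unadjusted. Library pairs within groups had chi-square values of 3.27 to 11.8 relative to their degrees of freedom, above counting noise. That does not show whether they came from separate animals, as spread between preparations would do the same. Each library counted once, without a term for animal or pool.

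Genes named by class had at least 5 CPM in the higher 6 libraries: the 10 largest alike changes without overlap in each direction and the 5 largest unequal and opposite ones. V, D and J segments, clone-numbered, ribosomal protein and mitochondrial genes were passed over there. Up to 4 genes per list, a fixed set and up to 4 V segments were named without that floor. Other genes of the 31 lists (630 genes, 20 lists of NK cell biology and 11 of other cells) named in the text were chosen after their values were seen. Members and lists were chosen with earlier results of these data known. Lists are described by counts and medians, without set tests. Alternatives used DESeq2 1.42.0, other scalings, filters, a block, an additive model and each library left out. The code was tested on simulated data. The values of 1 listed gene are not reported here.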

Additional observations from a re-analysis of the deposited data

Results flagged for a closer look

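The antibody effect differed between the 2 backgrounds, by the interaction test of edgeR adjusted over all genes, for 41 genes named above. Each value here is the log2 effect with cGAMP minus that without it, so a negative value for a gene that rose marks a smaller rise with cGAMP.

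Among genes that rose on average the differences were -2.14 for Prok2, -1.59 for Lipg, -1.59 for Cxcr1, -1.39 for S100a9, -1.13 for Dhrs9 and -1.02 for Hdc. They were -0.97 for Ebi3, -0.76 for Oasl2, -0.76 for Socs3, -0.62 for Slc16a3, -0.42 for Oas3 and -0.26 for Fcgr3. Genes of granules and adaptors had -0.55 for Rab27a, -0.29 for Srgn, -0.26 for Fcer1g and -0.25 for Tyrobp. Prss34, at 0.57, and Lyz2, at 0.15, rose more with cGAMP.

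Among genes that fell on average the difference was -3.76 for Muc5ac, which fell to 8 counts over the 3 combination libraries. It was 1.70 for Mrgpre, 1.64 for Ighm, 1.09 for Fcrl5, 0.91 for Iglc3, 0.79 for Iglc2 and 0.39 for Ctsc, whose falls without cGAMP were larger than the changes with it. Receptors and factors of NK cells had -0.38 for Klrk1, -0.35 for Stat4 and -0.19 for Ncr1. Ighe, at -5.58, rose without cGAMP and fell with it on low counts, 75 in IgG, 493 in cGAMP, 215 in anti-IL-35 and 28 in the combination.

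Among genes not called on average the differences were 2.79 for Arg1, 2.66 for Il12a, 2.56 for Spp1, 2.13 for Mmp19, 1.98 for Cxcl10 and 1.82 for Vcan. They were -1.31 for Alox15, -0.96 for Cdh22, -0.73 for Zbtb2, -0.51 for Eomes, -0.50 for Egr1 and -0.23 for Prf1.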

How the results depend on the processing

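The scaling of libraries moved the counts most. When 9 NK transcripts set the scale, 3704 genes were higher and 652 lower on average, 2080 alike higher and 105 alike lower, 486 of opposite sign, 414 called against each other, 3113 called for the interaction and 5050 called with cGAMP. With library totals alone 3458 genes were lower and 1972 alike lower. Without immunoglobulin and other-cell genes 135 genes were of opposite sign and 39 called against each other. Asking for at least 2-fold left 335 higher and 91 lower. Of the 1984 alike genes, 872 were alike under NK transcript scaling, 1283 with library totals and at least 1607 with any library left out, all in the same direction. Of 20 alternatives that gave classes, Rab44 was alike in 20, Cebpb in 12, Dnajc27 in 8 and Itga9 in 7. The sign reversed for 3 genes: Stat4 at 0.00668 under NK transcript scaling (adjusted p = 0.931), and Prf1 at -0.0757 and Gzmb at -0.0822 with library totals (adjusted p = 0.0265 and 0.0381); the cause was not tested. Over all named genes and settings 3876 results kept their call and direction, 103 lost the call and 28 gained it.

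With each library left out in turn, higher genes numbered 2194 to 2327, lower 1311 to 1825, alike higher 1053 to 1123, alike lower 674 to 982, unequal 736 to 860, of opposite sign 165 to 227, called against each other 93 to 124, called with cGAMP 1681 to 2382, without it 2907 to 3627, and for the interaction 1216 to 1489. Libraries with the same replicate number did not deviate together (correlations -0.0247 to 0.038), and a replicate block gave 2332 higher and 1527 lower genes. An additive model, which has no interaction term, gave 2078 and 1172 and ended the calls of Ighe, Ighm, Klrk1 and Stat4 (adjusted p = 0.429, 0.0706, 0.0745 and 0.224). Genes left without a class had low median levels, at which intervals were wide; the part of depth was not tested. Counts of list members moved by over 1.5 times in 130 comparisons with an alternative and did not in 1150. No other alternative moved a total count of genes by that much.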

Other observations

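Muc5ac, a secreted mucin, and single immunoglobulin V segments had the largest fitted changes in the average and rested on low or uneven counts. Summed over the 3 libraries of a group, Ighv1-43 had 606 counts in IgG, 2 in cGAMP, 0 in anti-IL-35 and 50 in the combination. Igkv7-33 had 184, 372, 10 and 8, and Ighv6-4 had 6, 60, 0 and 0. Muc5ac had 199, 319, 73 and 8.

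Mitochondrial transcripts took 6.10% ± 0.11 (SD, n = 3) of counts in IgG, 8.19% ± 0.46 in cGAMP, 5.86% ± 0.40 in anti-IL-35 and 6.44% ± 0.38 in the combination. Ribosomal protein genes took 6.04% ± 0.04, 5.64% ± 0.24, 4.88% ± 0.18 and 5.02% ± 0.06, lower in both antibody groups.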
